A study of Drosophila melanogaster with 6 samples.

Results

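The genes described here are the chemoreceptors of Drosophila sensory neurons: the odorant receptors (Or), the gustatory receptors (Gr) and the ionotropic receptors (Ir). They were taken from the dm6 annotation as protein-coding genes with a symbol of Or, Gr or Ir followed by a number and a letter, which gave 179 genes (59 Or, 60 Gr and 60 Ir) of 13945 protein-coding genes on the chromosome arms. Another 7 loci with such a symbol (Ir47b, Ir48a, Ir51a, Ir56e, Ir60c, Ir60f and Or98P) are annotated as pseudogenes and were not included. All libraries came from chromatin of S2R+ cells, a cell line of embryonic origin, in which Dwg carrying a Flag tag was expressed. Flag-Dwg ChIP with the anti-Flag antibody gave 2 libraries, the IgG control antibody gave 2, and input chromatin gave 2. Titles were followed for the input libraries, whose antibody label reads dwg1. The labels name no library from cells without the tagged protein, and the expression of the receptors in the line was not measured in the data used here.

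Dwg (deformed wings, also called Zw5) is a zinc finger protein of insulators, DNA elements that block the action of enhancers on promoters. Chemoreceptors are membrane proteins by which neurons of the antenna, the palps, the labellum and the legs detect odors, tastes, temperature and humidity, and most of them are used in few neurons. Odorant receptors work with the co-receptor Orco. Ionotropic receptors descend from ionotropic glutamate receptors and work with co-receptors of their own family, among them Ir8a, Ir25a and Ir76b. Gustatory receptors include those for sugars, for bitter compounds and for carbon dioxide. S2R+ cells are not sensory neurons.

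Peaks of the Flag-Dwg ChIP were called by the authors with IgG as control and, separately, with input as control, and each list gives for a peak its summit, the position of highest signal, with a score that is the −log10 of its q-value. With the IgG control there were 10950 summits (scores of 1.31 to 905, median 12.9) and with input 12971 (1.30 to 2448, median 20.9). Neither list has a value per library, so sequencing depth cannot be read from them, replicate error could not be given and no test over samples was possible. A summit found in both lists is not a replicate, since the ChIP libraries behind them are the same. The counts that follow are descriptions, and summits against the IgG control are meant where no list is named. Where a summit has a pair of scores or distances, the first is against the IgG control and the second against input.

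Few chemoreceptors had a Flag-Dwg summit. A summit lay in the gene or in the 1000 bp to either side at 21 of 179 chemoreceptors (11.7%), against 52.1% of all protein-coding genes. In the list against input the number was 25 (14.0%), against 55.5% of all protein-coding genes. At scores of at least 20 there were 13 chemoreceptors with a summit (7.26%), against 31.8% of all protein-coding genes, and with no flank around the gene 9 (5.03%), against 36.7%. In all, 26 chemoreceptors had a summit in either list, 20 in both, and 153 had none: 54 of 59 Or genes, 50 of 60 Gr genes and 49 of 60 Ir genes. Against the IgG control the family counts were 4 Or genes (6.78%), 9 Gr genes (15.0%) and 8 Ir genes (13.3%), and against input they were 5 (8.47%), 10 (16.7%) and 10 (16.7%). The share was low on each arm that carries these genes: 9.68% of 31 chemoreceptors on 2L, 15.2% of 46 on 2R, 11.4% of 35 on 3L, 9.52% of 42 on 3R and 12.0% of 25 on X, where all protein-coding genes of the same arms had 47.4% to 54.3%. The chemoreceptors whose nearest summit was closest to the edge of the window were Gr93d (955 bp outside the gene) and Gr47b (910 bp), and those just beyond the edge were Or67b (1030 bp), Or71a (1069 bp) and Ir60b (1077 bp). Gr47b, Or67b, Or71a and Ir60b were named after their values were seen.

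**Figure D1:**
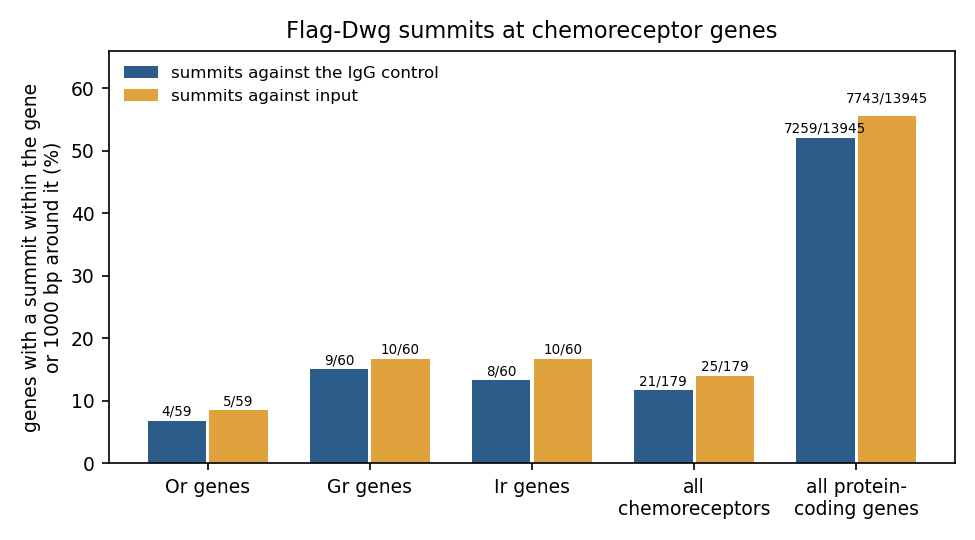
Share of genes (%) with at least 1 Flag-Dwg summit in the gene or the 1000 bp to either side, for the Or, Gr and Ir genes, all chemoreceptors and all protein-coding genes, with the list against the IgG control in blue and the list against input in orange. The numbers over the bars are genes with a summit of genes in the group; the 3 receptor families lie between 6.78% and 16.7%, and all protein-coding genes at 52.1% and 55.5%.

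Summits in the windows of chemoreceptors were split between those nearest to the chemoreceptor's own transcription start and those nearer to the start of a neighbor. The windows held 37 distinct summits, none of them in the windows of more than 1 chemoreceptor. Of these, 18 (48.6%, at 10 genes) had the chemoreceptor's own start as the nearest start of a protein-coding gene, and 19 (51.4%, at 15 genes) were nearer to the start of another gene. No summit was nearest to the start of another chemoreceptor. Over all protein-coding genes treated the same way, the start of another gene was nearer in 41.5% of 16830 gene and summit pairs. Against input, 25 of 45 summits (55.6%) had the own start nearest and 20 (44.4%) were nearer to another gene, where all protein-coding genes gave 40.4% of 19094 pairs. With no flank around the gene, 3 of 13 summits (23.1%) were nearer to another gene, against 20.4% of pairs over all protein-coding genes. With the flank of 1000 bp, 10 of 179 chemoreceptors (5.59%) had their own start nearest to a summit, against 40.0% of all protein-coding genes, and against input 14 did (7.82%), against 43.3% of all protein-coding genes. A summit lay within 500 bp of an own start at 9 chemoreceptors in each list (5.03%), against 40.1% of all protein-coding genes for the IgG control and 43.2% for input. At scores of at least 20 the own start was nearest at 3 chemoreceptors (1.68%), against 20.7% of all protein-coding genes, and 11 of the 14 summits left (78.6%) were nearer to another gene, against 42.8% of pairs over all protein-coding genes. When the starts of noncoding genes were also considered, 1 summit against the IgG control and 2 against input were nearer to such a start, and none of them had the chemoreceptor's own start as the nearest protein-coding one.

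The 2 kinds of summit at chemoreceptors differed in height and place. Since the kinds are defined by the nearest start, their distances depend in part on the split itself. Summits with the own start nearest had scores of 1.57 to 70.7 (median 7.12), 3 of 18 had a score of at least 20, and their median distance from that start was 798 bp. Summits nearer to another gene had scores of 3.07 to 384 (median 22.3), 11 of 19 had a score of at least 20, and their median distance from the neighbor's start was 156 bp. Within 100 bp of the nearest start lay 3 of the first kind and 7 of the second. Over all summits of the list the median distance to the nearest start was 510 bp, and 24.3% lay within 100 bp. Scores and distances of the 2 kinds are not given for all protein-coding genes. The 18 summits of the first kind came from 10 genes, so they are not separate cases. Of the 18 summits with the own start nearest, 9 lay in the coding sequence of the chemoreceptor, 6 inside another protein-coding gene and 2 outside every protein-coding gene. The highest summit of a gene had that gene's own start nearest at 7 of 21 chemoreceptors with a summit (33.3%), against 57.5% of all protein-coding genes with a summit, and against input at 10 of 25 (40.0%), against 58.4%. The median highest score was 22.3 at chemoreceptors with a summit and 29.7 at all protein-coding genes with a summit. Against input it was 24.7 at chemoreceptors and 59.7 at all protein-coding genes. The highest score was at least 20 at 61.9% of chemoreceptors with a summit and 61.1% of all protein-coding genes with a summit, and against input at 60.0% of chemoreceptors and 75.8% of all protein-coding genes. A single summit was present at 12 of 21 chemoreceptors with a summit (57.1%), against 38.3% of all protein-coding genes with a summit, and against input at 17 of 25 (68.0%), against 36.4%. The most at 1 chemoreceptor were 4, at Or2a and at Gr66a (5 against input, at Ir76a). Summits per gene and highest scores were not matched for gene length. The upper quartile of length was 2204 bp for chemoreceptors and 4998 bp for all protein-coding genes.

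**Figure D2:**
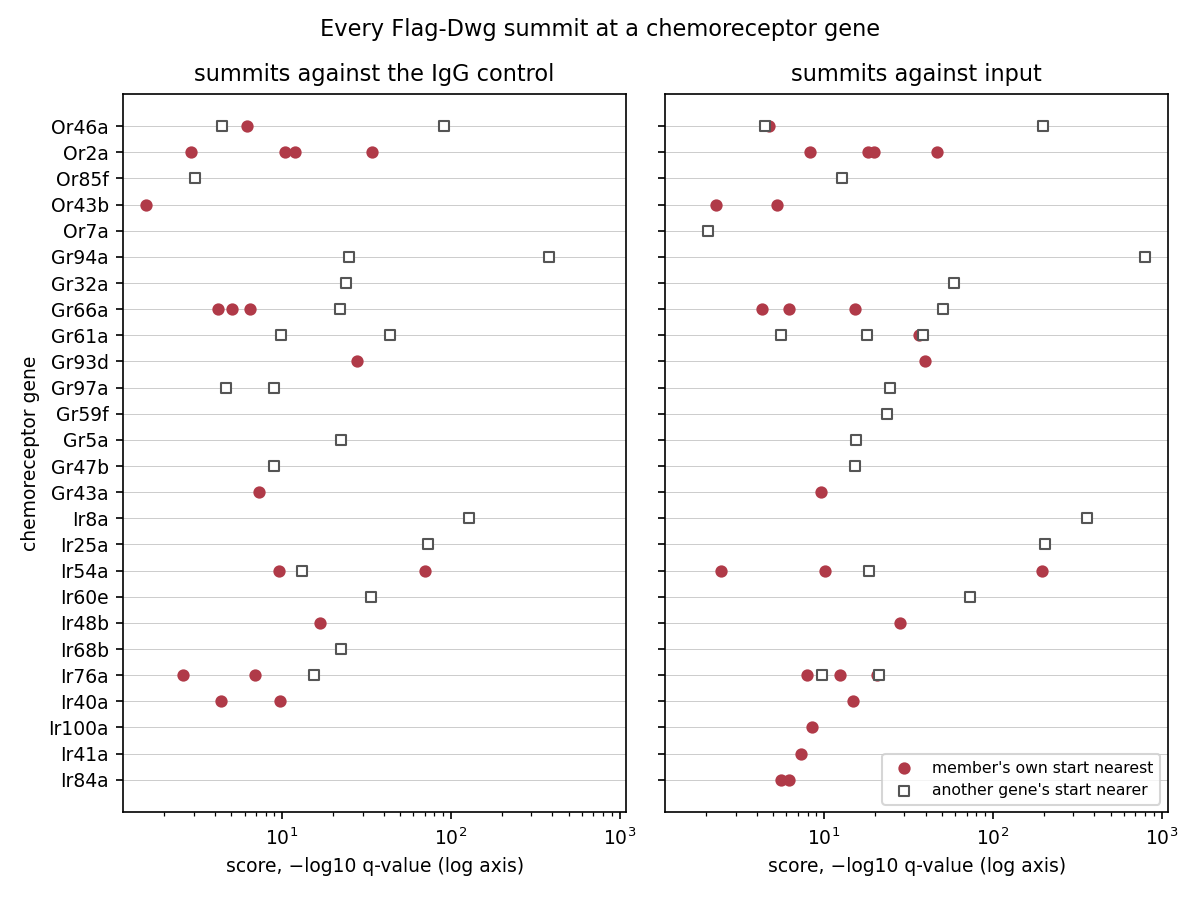
Score (−log10 of the q-value, log axis) of every summit within or 1000 bp around a chemoreceptor, by gene (rows, ordered by family and highest score), for the list against the IgG control (left) and against input (right). Filled circles are summits with the chemoreceptor's own start nearest and open squares are summits nearer to another gene's start; the highest point of both panels, 384 and 798, is an open square at Gr94a.

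**Figure D3:**
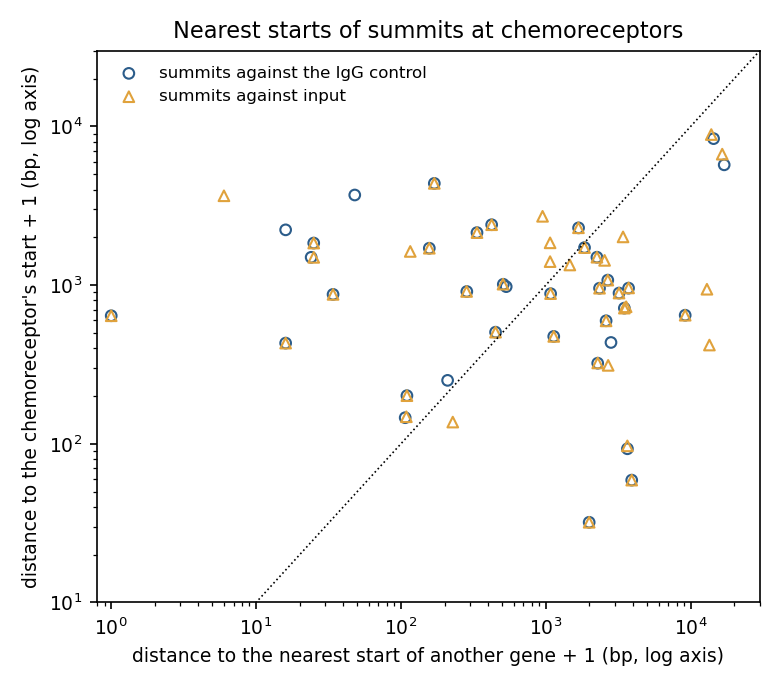
Distance from each summit at a chemoreceptor to the nearest start of another protein-coding gene (x axis, bp + 1, log) and to the chemoreceptor's own start (y axis, bp + 1, log). Circles are summits against the IgG control, triangles summits against input, and the dotted line marks equal distances; points above the line, 19 of 37 circles and 20 of 45 triangles, are nearer to another gene.

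Among the ionotropic co-receptors, Ir8a and Ir25a had a summit and Ir76b and Ir93a did not. Ir8a (FBgn0052704, chrX:9232726-9236585), a co-receptor for acids, had 1 summit with a score of 129 against the IgG control and 362 against input. It lay 517 bp downstream of the gene, in the 5′ UTR of CG12121 and 169 bp from the start of CG12121, but 4376 bp from the start of Ir8a. Ir25a (FBgn0031634, chr2L:4830846-4835300), the most widely used co-receptor, had 1 summit with scores of 73.6 and 205, which lay 47 bp and 5 bp from the start of Fnta, a farnesyltransferase subunit, and 3697 bp and 3655 bp from the start of Ir25a. So at both co-receptors the summit lay downstream, near the start of a neighbor. Ir76b, a co-receptor for amines and salts, had its nearest summit 4168 bp outside the gene in either list. At Ir93a, a co-receptor for temperature and humidity, the nearest summit was 1188 bp away, and only 42.8% of the 32 bp words of this gene occur once in the genome, where the authors filtered for unique reads. Whether this bears on the missing summit was not tested.

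Ionotropic receptors with their own start nearest to a summit were Ir40a, Ir48b, Ir54a and Ir76a. Ir54a (FBgn0034272, chr2R:17744101-17746005) carried the highest summit of this kind among the chemoreceptors, with scores of 70.7 and 197. That summit was 715 bp upstream of the start and lay in the coding sequence of Vps50, a vesicle tethering factor whose own start was 3485 bp away. A weaker summit (9.64 and 10.1) was in the coding sequence of Ir54a, 58 bp from its start, and another (13.1 and 18.4) was downstream and nearer to sub, a kinesin gene. Ir48b had 1 summit 645 bp upstream of its start in both lists (16.9 and 28.4). Ir76a, a receptor for amines, had 3 summits against the IgG control and 5 against input. Its highest summit (15.4 and 21.3) lay in an intron of Ir76a that overlaps the coding sequence of CG14102. It was 106 bp and 108 bp from the start of CG14102 and 145 bp and 147 bp from a start of Ir76a. The 2 others against the IgG control, of 6.95 and 2.60, had a start of Ir76a nearest, at 1723 bp and 595 bp. That of 2.60 lay in the coding sequence of SREBP. Ir40a (FBgn0259683, chr2L:22189526-22214376), a receptor for dry air, had a summit of 9.71 in its coding sequence, 8377 bp from its start, and 1 of 4.33 in an intron at 5728 bp, both against the IgG control. Against input it had 1 summit (14.8), 227 bp outside the gene and 8890 bp from its start. Neither of the first 2 had a summit against input within 100 bp, and 74.8% of the words of Ir40a are unique.

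Ir84a, Ir41a and Ir100a had a summit against input but none against the IgG control. Ir84a, the receptor for phenylacetic acid, had 2 weak summits (6.23 and 5.58) in its coding sequence, 418 bp and 941 bp from its start. Ir41a, a receptor for amines and the longest chemoreceptor gene at 104437 bp, had 1 of 7.27 in an intron, 6688 bp from its start, and 70.5% of its words are unique. Ir100a had 1 of 8.44 in its coding sequence. Ir60e had a summit of 33.8 and 73.8 that was 33 bp from the start of CG13585 and 873 bp from its own. Ir68b was the single chemoreceptor with a summit against the IgG control alone (22.3), 15 bp from the start of yps, an RNA-binding protein of the Y-box family, and 2229 bp from its own start. No summit was found at Ir21a (nearest 41744 bp away), a receptor for cooling, at Ir92a (6890 bp), a receptor for ammonia, or at Ir64a (11076 bp), a receptor for acids.

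Among the receptors for sugars, Gr5a, Gr61a and Gr43a had a summit and all 6 genes of the Gr64 cluster had none. Gr5a (FBgn0003747, chrX:5680617-5682488), the receptor for trehalose, shared its upstream region with Tre1, a G protein-coupled receptor that guides germ cell migration, and its summit (22.3 and 15.5) was on the start of Tre1, at 0 bp, and 640 bp from the start of Gr5a. Gr61a (FBgn0035167, chr3L:841451-843701), a receptor for sugars such as glucose, had its highest summit (43.9 and 38.7) in the coding sequence of JMJD5, a member of the Jumonji family of hydroxylases, 109 bp from the start of JMJD5 and 200 bp from that of Gr61a. Against input, a summit of 36.7 lay in the 5′ UTR of Gr61a, 136 bp from its start and 227 bp from that of JMJD5. It was the only summit of either list in the 5′ UTR of a chemoreceptor. A weaker summit (9.86 and 18.1) in the 3′ UTR of Gr61a was 334 bp from the start of Cep290, a protein of the ciliary base. Gr43a, the receptor for fructose, had a summit of 7.29 and 9.59 in its coding sequence, 956 bp and 959 bp from its start. From the Gr64 cluster the nearest summit was 5202 bp away at Gr64a and 2606 bp away at Gr64f, the genes at its 2 ends.

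Among the receptors for bitter compounds, Gr66a and Gr32a had summits and Gr33a and Gr93a had none. Gr66a (FBgn0035870, chr3L:8305336-8306980), found in most bitter neurons, had 4 summits in each list. The highest (22.2 and 50.4) was in the coding sequence of the neighbor Sbp2, 422 bp from its start, where Sbp2 is a factor for selenoprotein synthesis. The other 3 had the start of Gr66a nearest: 1 in its coding sequence at 31 bp (4.15 and 4.31), 1 in its coding sequence at 321 bp (5.03 and 6.25 at 322 bp) and 1 upstream at 882 bp (6.47 and 15.3 at 883 bp), in the coding sequence of BI-1, the fly Bax inhibitor. Of all 37 summits at chemoreceptors, the one at 31 bp was the nearest to a chemoreceptor's own start. Gr32a (FBgn0041246, chr2L:11114014-11115823), a receptor for bitter compounds and a pheromone, had 1 summit (23.9 and 59.3) between genes, 449 bp from the start of Idua and 504 bp from its own. Gr33a (nearest summit 29057 bp away) and Gr93a (9799 bp), a receptor needed for caffeine taste, had none.

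The carbon dioxide receptors Gr21a and Gr63a had no summit, with the nearest 28716 bp and 1894 bp outside the genes. Gr28a (19455 bp) and Gr28b (21761 bp), a gene with roles in sensing warmth and light, and Gr10a (16217 bp) had none either. Outside the groups of known ligand, Gr94a and Gr93d had the highest scores. Gr94a (FBgn0041225, chr3R:23051689-23052903) lies wholly inside p53, the fly counterpart of the tumor suppressor, and had the highest summit of any chemoreceptor window, with scores of 384 (rank 78 of 10950) and 798. This summit was in the 5′ UTR of p53, 24 bp from a p53 start and 1840 bp from the start of Gr94a. A summit of 24.9 in a p53 intron, found against the IgG control only, was 209 bp from a p53 start and 250 bp upstream of Gr94a. Gr93d (FBgn0045468, chr3R:21845454-21846659), in a cluster with Gr93b and Gr93c, had a summit of 27.8 and 39.8 in no annotated protein-coding gene, 955 bp upstream of its start and 2349 bp from that of Gr93c. Gr59f had a summit against input only (23.7), 115 bp from the start of AIMP3, an aminoacyl-tRNA synthetase cofactor. The remaining Gr genes with a summit, named after their values were seen, were Gr47b (9.01 and 15.3, 284 bp and 283 bp from san) and Gr97a (8.97 and 24.7, 15 bp from CG5521).

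Among the odorant receptors, Or2a, Or43b and Or46a had their own start nearest to a summit. Or2a (FBgn0023523, chrX:2246231-2247567) had 4 summits, and the start of Or2a was the nearest for each. The highest (34.1 and 47.0) was downstream of the gene, 1498 bp from that start, and lay in the coding sequence of crn, a splicing factor gene. The others were 890 bp upstream (10.4 and 18.2), in the coding sequence at 92 bp (2.88 and 8.30 at 96 bp) and in the coding sequence at 1074 bp (11.9 and 19.9). Or46a (FBgn0026388, chr2R:10139264-10142074) had 3 summits in each list. Its highest (91.0 and 198) was 23 bp and 24 bp from the start of CG18011. A weak one in the coding sequence of Or46a (4.43 and 4.49) was also nearer to CG18011. Another weak one (6.17 and 4.71) lay 474 bp upstream of an own start, in the coding sequence of CG12917. Or43b had the lowest score of all (1.57), in its coding sequence at 434 bp, and 2 summits of 5.29 and 2.28 against input. Or7a had 1 summit against input only (2.07), 1070 bp from CG10761, and Or85f, named after its values were seen, had 1 (3.07 and 12.8) that was 156 bp from CG34117.

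No summit was found at the other odorant receptors with well known ligands. From Or22a, a receptor for fruit esters, the nearest summit was 17735 bp away, from Or42b, which mediates attraction to vinegar, 7560 bp, and from Or47b, a receptor for social cues, 11705 bp. From Or56a, the receptor for geosmin, it was 85949 bp away (42572 bp against input), from Or67d, the receptor for the male pheromone cis-vaccenyl acetate, 48297 bp (14926 bp against input), and from Or10a 16217 bp, since Or10a and Gr10a have the same gene limits. Orco, their co-receptor, also had no summit in either list.

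The sequences around these summits were read from the dm6 assembly to show what DNA carries them. They are given 5′ to 3′ on the plus strand, as up to 50 bases to each side of the summit without annotated UTR bases, and capitals mark matches on either strand to CGATA (bound by BEAF-32), GAGAG (bound by GAGA factor), TATCGATA (the DNA replication-related element, DRE) or GGTCACAC (the core of the M1BP motif). A DRE match also counts for CGATA. The first 5 windows have the chemoreceptor's own start as the nearest start, and the Gr66a window that spans the gene's start and the Or2a window just after that gene's start hold no match. In the Ir40a window a GAGAG match runs straight into a CGATA match.
Gr66a, summit 31 bp from its start, chr3L:8306899-8306999: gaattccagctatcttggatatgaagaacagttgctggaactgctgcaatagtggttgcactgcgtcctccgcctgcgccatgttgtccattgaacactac
Gr66a, summit 321 bp from its start, coding sequence, chr3L:8306609-8306709: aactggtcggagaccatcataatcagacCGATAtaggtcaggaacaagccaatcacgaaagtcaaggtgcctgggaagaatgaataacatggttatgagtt
Or2a, summit 92 bp from its start, coding sequence, chrX:2246273-2246373: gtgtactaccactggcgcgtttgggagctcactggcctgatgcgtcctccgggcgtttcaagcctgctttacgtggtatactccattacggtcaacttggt
Gr93d, summit 955 bp upstream, in no protein-coding gene, chr3R:21847564-21847664: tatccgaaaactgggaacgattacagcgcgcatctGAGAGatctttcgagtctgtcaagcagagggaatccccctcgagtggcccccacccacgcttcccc
Ir40a, summit in coding sequence, chr2L:22189762-22189862: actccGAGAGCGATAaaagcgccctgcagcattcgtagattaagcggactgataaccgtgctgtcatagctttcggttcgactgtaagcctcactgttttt
The next windows belong to summits nearer to a neighbor. The Gr32a window, between genes, has 2 runs of GAGAG repeats near its left end, the Ir68b window holds 2 matches to CGATA beside the start of yps, and the Gr5a window and that of the weaker Gr94a summit hold none. The window of the highest Gr94a summit, in the 5′ UTR of p53 and not printed, holds a CGATA match. The Gr5a window is cut to the side of the summit away from the UTR of Tre1.
Gr32a, nearer to Idua, chr2L:11113460-11113560: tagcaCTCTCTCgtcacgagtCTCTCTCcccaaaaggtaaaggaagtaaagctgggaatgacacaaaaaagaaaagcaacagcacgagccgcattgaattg
Ir68b, nearer to yps, chr3L:12125151-12125215: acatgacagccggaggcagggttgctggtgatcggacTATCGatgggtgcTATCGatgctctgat
Gr94a, intron of p53, chr3R:23051389-23051489: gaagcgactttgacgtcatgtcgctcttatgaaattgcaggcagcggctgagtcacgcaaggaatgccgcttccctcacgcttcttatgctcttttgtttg
Gr5a, beside the start of Tre1, chrX:5679978-5680027: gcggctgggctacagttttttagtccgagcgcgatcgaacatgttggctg

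Over all 37 windows of 101 bp at chemoreceptors, CGATA was found in 5 (13.5%), against 12.9% of all 10950 summit windows of the list, and GAGAG in 8 (21.6%), against 14.9%. TATCGATA was found in none, against 0.731% of all summit windows, and GGTCACAC in none, against 2.25%. Against input, CGATA was in 5 of 45 windows (11.1%), against 12.9% of all, GAGAG in 11 (24.4%), against 15.3%, TATCGATA in 1 (2.22%), at the Fnta start beside Ir25a, against 0.632%, and GGTCACAC in none, against 1.99%. With so few windows these shares are descriptions of letters and not of binding by the factors named.

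The counts were also split by the surroundings of the genes. Chemoreceptors within 5000 bp of each other were joined into 128 loci, of which 21 held a summit and 25 a summit against input. A summit was present at 19 of 100 chemoreceptors that are alone in their locus (19.0%) but at 2 of 79 in loci of 2 or more (2.53%) and at 1 of 53 in the 15 loci of 3 or more (1.89%), which was Gr93d. Against input these numbers were 22 of 100 (22.0%), 3 of 79 (3.80%) and 1 of 53 (1.89%). These groups have no counterpart among all protein-coding genes, of which 52.1% had a summit (55.5% against input). The clusters without a summit in either list were the Gr64a to Gr64f sugar receptors, Gr22a to Gr22e, Ir7c to Ir7g, Ir52a to Ir52d and 10 groups of 3 genes. Of 39 chemoreceptors with the start of some other kind of gene in the same window, 12 had a summit (30.8%), against 65.0% of all protein-coding genes with such a start, and of 140 without such a start, 9 did (6.43%), against 31.2%. Against input the numbers were 12 of 39 (30.8%), against 68.0%, and 13 of 140 (9.29%), against 35.4%. A lower share without a neighboring start was thus seen in all protein-coding genes too. Of 30 chemoreceptors that lie wholly inside another protein-coding gene, 1 had a summit (3.33%), Gr94a, against 31.7% of all protein-coding genes placed in this way, and 2 had one against input (6.67%), Gr94a and Ir100a, against 35.3%.

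Gene length and spacing were set beside the counts. The median length was 1691 bp for chemoreceptors and 2166 bp for all protein-coding genes. Among genes of 1378 to 2204 bp, the range between the quartiles of chemoreceptor length, a summit was present at 9 of 89 chemoreceptors (10.1%), against 51.5% of 2768 protein-coding genes, and against input at 10 (11.2%), against 54.3%. The start of a chemoreceptor was a median of 2154 bp from the nearest start of another gene, against 1375 bp for all protein-coding genes. By this distance the share with a summit was 22.7% of 22 chemoreceptors under 500 bp, 23.1% of 13 from 500 bp, 10.9% of 46 from 1000 bp, 10.2% of 59 from 2000 bp and 5.13% of 39 from 5000 bp. The shares of all protein-coding genes in the same ranges were 77.2%, 56.8%, 42.1%, 40.0% and 28.4%, so the chemoreceptors were lower in each range, and the share was lowest at the widest spacing in both. Per megabase of their merged windows (0.750 Mb) there were 49.3 summits, against 105 in the windows of all protein-coding genes (98.7 Mb), and with input as control 60.0, against 123 for all protein-coding genes.

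**Figure D4:**
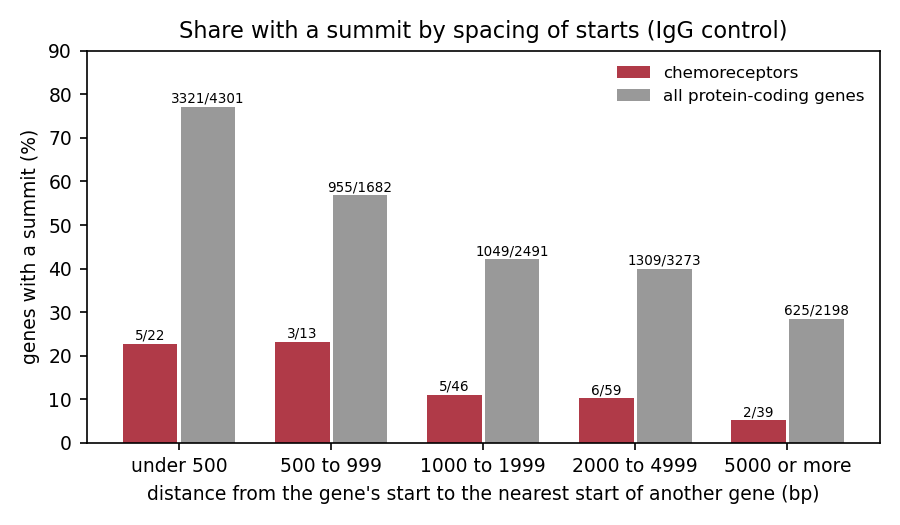
Share of genes (%) with a summit against the IgG control in the gene or the 1000 bp to either side, by distance from the gene's start to the nearest start of another protein-coding gene (bp), for chemoreceptors (red) and all protein-coding genes (gray). Numbers over the bars are genes with a summit of genes in the range; the red bars run between 5.13% and 23.1% and the gray bars between 28.4% and 77.2%.

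Summits were far from most chemoreceptors. The median distance from the limits of a gene to the nearest summit was 11768 bp for chemoreceptors and 714 bp for all protein-coding genes. Against input it was 8898 bp for chemoreceptors and 433 bp for all protein-coding genes. Within 10000 bp a summit was found for 80 chemoreceptors (44.7%), against 75.0% of all protein-coding genes. Within 100000 bp the shares were 99.4% of chemoreceptors and 98.7% of all protein-coding genes. The farthest chemoreceptor was 102583 bp from a summit, and the farthest of all protein-coding genes 1664222 bp. Repeated sequence was rare in these genes: the median share of 32 bp words that occur once in the genome was 100% for chemoreceptors and for all protein-coding genes, and 6 chemoreceptors (3.35%), against 6.53% of all protein-coding genes, were under 90%. Among the 173 others, 20 had a summit (11.6%), so the share without these 6 genes was close to that with them.

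**Figure D5:**
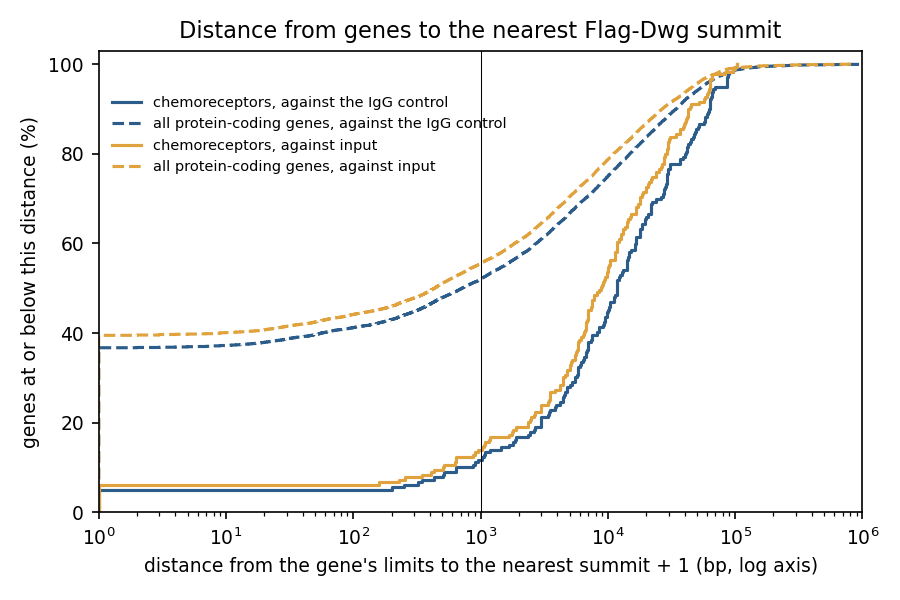
Cumulative share of genes (%) by distance from the gene's limits to the nearest summit (bp + 1, log axis), for chemoreceptors (solid) and all protein-coding genes (dashed), against the IgG control (blue) and against input (orange), with a vertical line at 1000 bp. The solid curves stay below the dashed ones at 1000 bp and at 10000 bp, where 44.7% of chemoreceptors and 75.0% of all protein-coding genes had a summit against the IgG control.

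Other genes of chemosensation were counted for comparison, and all listed symbols were found in the annotation. Each count stands beside 52.1% of all protein-coding genes with a summit (55.5% against input) and 40.0% with their own start nearest to it (43.3% against input). Of 50 odorant-binding proteins, which carry odorants in the fluid around the neurons, 6 had a summit (12.0%) and 7 against input (14.0%), and the own start was nearest at 2 (4.0%) and, against input, 3 (6.0%). At Obp19d the summit was 73 bp from its own start (5.03 against the IgG control), at Obp18a 203 bp (3.30 against the IgG control) and at Obp83b 353 bp (1.55 against input). Of 9 membrane and accessory proteins 1 had a summit (11.1%), Amt, an ammonium transporter, and 3 had one against input (33.3%). The own start was nearest at 1 in each list. It was that of Amt against the IgG control (2.43, at 1401 bp) and that of ppk28 against input (2.13, at 297 bp). Of 11 transcription factors used in chemosensory neurons or organs, 3 had a summit (27.3%) and 4 against input (36.4%), and the own start was nearest at each. These were zf30C, with a summit 5 bp from its start (13.7 and 59.3), Xbp1, a factor of the unfolded protein response (28.1 and 50.8, at 157 bp and 156 bp), Eip93F and, against input, onecut (4.88, at 60 bp). Eip93F had 2 summits and 7 against input, with highest scores of 20.5 and 36.8. The closest to its start lay at 4739 bp and, against input, at 234 bp. Of 13 ionotropic glutamate receptors, the family from which the Ir genes descend, 3 had a summit (23.1%) and 4 against input (30.8%), and the own start was nearest at 1 (7.69%) and, against input, 2 (15.4%). At Ekar the summit was exactly at the start (23.8 and 58.0), and at clumsy it was 3431 bp away (4.69 against input). The highest summits of this list, at the NMDA receptor genes Nmdar1 (92.2 and 218) and Nmdar2 (62.4 and 85.3), were nearer to the start of another gene; these 2 were named after their values were seen.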

How the data were processed

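ChIP-seq was carried out on S2R+ cells expressing Flag-Dwg. The authors trimmed reads with Trim Galore 0.6.4, mapped them to dm6 by local alignment with Bowtie2 2.3.5.1, filtered for unique reads (SAMtools 1.6) and called peaks with MACS2 2.2.6; HOMER 4.11 is also in the submitters' processing notes. The deposited values are −log10 of the q-value per summit, whose lower limit lies at a q-value of 0.05. Whether libraries were pooled before peak calling is not given in the sources used here. Because reads were filtered for unique ones, the share of 32 bp words that occur once in the genome was computed for each gene. How closely this share follows the reads kept by the filter was not tested.

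The gene annotation was that of Ensembl (release 115, same assembly), and sequence was read from NCBI's copy. Positions are 1-based. A summit counted for a gene within its limits or 1000 bp around it. Its nearest start was the closest start of any protein-coding transcript, and summits of both lists no more than 100 bp apart were taken as shared (31 of 37 at chemoreceptors against the IgG control, 83.8%, and 31 of 45 against input, 68.9%, where all summits gave 86.9% and 73.3%). Counts were set beside those over all protein-coding genes, with no test. The search for the nearest start and the edges of the window were tested first, on simulated positions at annotated genes.

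The members and lists were chosen with earlier results of these data known. Named were chemoreceptors with their own start nearest to a summit, the 10 highest scores against the IgG control and the 5 highest against input, receptors of well known role, those with a summit in 1 list only, their nearest neighbors, Orco and genes of the added lists with a summit at their own start. As alternatives, summits were limited to scores of at least 5, 10 or 20, to the list against input or to shared summits, and the others were other flanks, other starts, other distances to the own start and loci in place of genes. Python 3.11.15, NumPy 2.4.6, pandas 2.3.3 and matplotlib 3.10.9 were used.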

Additional observations from a re-analysis of the deposited data

How the results depend on the processing

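No paired analysis was possible because values per library are absent from the summit lists, and for the same reason no library could be left out. Of 54 alternatives, 38 stayed within 1.5 times the main count and 16 did not. A count has no direction, so a reversal could not be judged from these. The share of chemoreceptors with a summit was below that of all protein-coding genes in 10 of 10 alternatives with such a share. Chemoreceptors with a summit numbered 13 at a score of at least 20 (7.26%, against 31.8% of all protein-coding genes) and 9 with no flank around the gene (5.03%, against 36.7%). Distinct summits at chemoreceptors numbered 19 for scores of 10 or more, 14 for 20 or more, 13 with no flank, 23 with a flank of 500 bp and 61 with 2000 bp. The own start was nearest to a summit at 4 chemoreceptors when scores were 10 or more (2.23%, against 28.7% of all protein-coding genes) and at 3 when they were 20 or more (1.68%, against 20.7%). Summits nearer to another gene numbered 11 at a score of at least 20 (78.6% of 14, against 42.8% of pairs over all protein-coding genes), 3 with no flank (23.1%, against 20.4%), 11 with a flank of 500 bp (47.8%, against 33.1%) and 39 with 2000 bp (63.9%, against 52.7%). Chemoreceptors with a summit within 500 bp of their own start numbered 3 for scores of 10 or more (1.68%, against 29.9%) and 2 for scores of 20 or more (1.12%, against 22.2%), and 16 had a summit within 1000 bp of it (8.94%, against 45.5%). With few genes and no depth or value per library, small differences between receptor families cannot be told from error.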
